A study of Homo sapiens with 12 samples.

Results

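Transcripts of 10 aldehyde dehydrogenase genes were followed across 12 RNA-seq libraries of SKOV-3, an established human epithelial ovarian adenocarcinoma cell line, and of its cisplatin-resistant derivative SKOV-3 CDDP. The 10 genes were chosen by name, with earlier results of these data known. All were found among the 59498 gene identifiers of the deposited count table: ALDH1A1, ALDH1A2, ALDH1A3, ALDH1B1, ALDH1L2, ALDH2, ALDH3A1, ALDH3A2, ALDH3B1 and ALDH7A1. Each of the 4 groups held 3 libraries. SKOV-3 CDDP in which KDM5A and KDM5B were both knocked out is called resistant knockout here, and SKOV-3 CDDP without it is called resistant. SKOV-3 with both genes knocked out is called parental knockout, and SKOV-3 without it is called parental. All 4 groups were grown in the same serum-containing medium, and polyadenylated RNA was sequenced. The labels do not say whether a knockout line is a clone or a pool, how it was made, whether cisplatin was present at harvest, or whether replicate libraries stem from separate cultures. The p-values are therefore set by a spread between libraries that may be technical.

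Aldehyde dehydrogenases use NAD+ or NADP+ to oxidise aldehydes to carboxylic acids, or to acyl-CoA in some members. ALDH1A1, ALDH1A2 and ALDH1A3 are cytosolic retinaldehyde dehydrogenases, which make retinoic acid, the ligand of the nuclear retinoic acid receptors. ALDH1B1, ALDH2 and ALDH1L2 are mitochondrial, ALDH7A1 acts in lysine breakdown, and the ALDH3 enzymes act on longer or aromatic aldehydes, including those left by lipid peroxidation. High aldehyde dehydrogenase activity is widely used to sort stem-like cells from carcinomas, the ovarian ones among them, and several members also oxidise drug metabolites.

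Totals ran from 15659352 to 19706754 counts per library, and mitochondrially encoded transcripts took 5.34% to 16.3% of them, with the highest share in parental knockout library 3. KDM5A, which encodes a demethylase of lysine 4 on histone H3, stood at 12.0 to 17.6 CPM, a count divided by the normalised depth, in resistant knockout libraries, against 33.4 to 39.9 CPM in resistant ones. In parental knockout libraries it stood at 15.6 to 22.5 CPM, against 30.9 to 41.5 CPM in parental ones. KDM5A thus did not overlap between knockout and control in either background, while edgeR's quasi-likelihood test with Benjamini-Hochberg adjustment gave an adjusted p of 0.0524 in resistant cells and 1 in parental cells. With a block for replicate number within each background, whose numbers pair all libraries only in parental cells, the parental value was 0.0468. KDM5B overlapped between all groups, with 28.3 to 84.8 CPM in resistant knockout, 39.5 to 111 CPM in resistant, 25.3 to 78.7 CPM in parental knockout and 43.0 to 79.7 CPM in parental libraries. A transcript count does not show whether the protein is lost. PAX8, a defining transcription factor of ovarian carcinoma epithelium, was at 157 to 616 CPM in every library, and 6 to 8 of 8 epithelial markers reached 1 CPM. The 8 markers were not even across backgrounds. By the same test 3 were higher and 3 lower in resistant than in parental cells, where 28.0% of all genes passed. KRT8 averaged 1376 CPM in resistant and 224 CPM in parental libraries, EPCAM 4.13 and 35.0 CPM, and MUC16 0.659 and 0.975 CPM.

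On a scale of CPM per kilobase of annotated exon, which allows levels of different genes to be compared, ALDH1B1 was the highest or joint highest member in every group. In resistant knockout cells ALDH1B1 and ALDH1A1 shared the top, with 39.6 to 64.6 CPM per kilobase for ALDH1B1 and 33.8 to 69.5 for ALDH1A1. In resistant cells ALDH1B1 had 60.6 ± 12.4 and ALDH1A1 39.8 ± 21.1 CPM per kilobase (SD, n = 3), and their ranges overlapped. A lower tier of ALDH7A1 (11.3 ± 2.66), ALDH3A2 (10.5 ± 2.07) and ALDH3B1 (9.91 ± 2.08 CPM per kilobase) followed in resistant cells, with overlapping ranges. ALDH1A3 came next with 2.08 ± 0.376, then ALDH2 with 0.745 ± 0.465 and ALDH1L2 with 0.463 ± 0.313 CPM per kilobase, the last pair overlapping. ALDH1A2 was at 0.0258 ± 0.0163 CPM per kilobase and ALDH3A1 had no reads.

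The parental order was different. ALDH1B1 (15.1 ± 3.44 CPM per kilobase) and ALDH3B1 (11.9 ± 2.48) overlapped at the top, and ALDH3A2 (7.50 ± 4.30) overlapped ALDH3B1 above it and ALDH7A1 (4.14 ± 1.15) below it. ALDH2 followed with 1.91 ± 0.870 and ALDH3A1 with 1.18 ± 0.909 CPM per kilobase, then ALDH1A2 with 0.261 ± 0.0661, and ALDH3A1 overlapped both of these neighbours. ALDH1A3 had 0.119 ± 0.0276, ALDH1L2 0.0644 ± 0.0243 and ALDH1A1 0.0130 ± 0.0114 CPM per kilobase, so the gene that shared the top in resistant knockout cells was the last in parental cells. The exon length is the union over all annotated transcripts, so a long union such as the 17970 bases of ALDH7A1 lowers the value.

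As a share of the length-scaled sum of the 10 members, ALDH1A1 made up 25.4% to 45.0% in resistant knockout libraries and 19.1% to 35.5% in resistant libraries. It made up 0% to 0.180% in parental knockout libraries and 0% to 0.0677% in parental libraries. ALDH3B1 took a smaller share in resistant cells, with 7.95% to 10.4% in resistant knockout and 5.50% to 11.0% in resistant libraries, against 20.5% to 22.3% in parental knockout and 24.7% to 30.3% in parental libraries. The summed CPM of the 10 members was 565 to 719 in resistant knockout, 572 to 831 in resistant, 179 to 289 in parental knockout and 202 to 335 in parental libraries. The sum thus did not overlap between resistant and parental cells of either genotype.

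**Figure D1:**
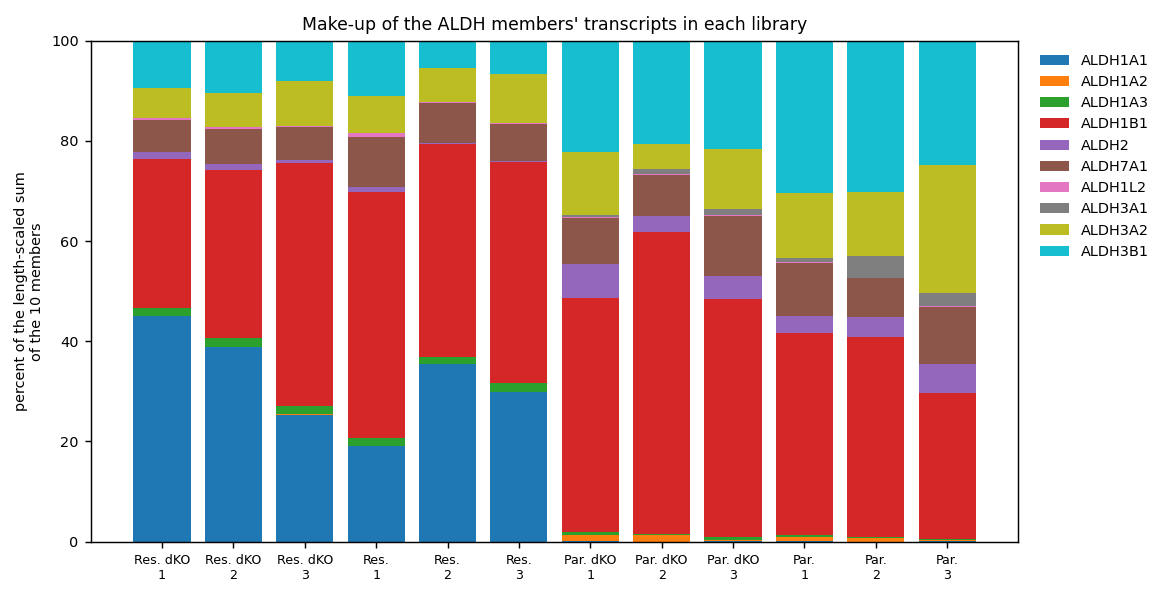
Share of each of the 10 aldehyde dehydrogenase genes in their length-scaled sum (percent, y axis) for each of the 12 libraries (x axis), stacked to 100. ALDH1A1 (bottom, dark blue) takes 19.1% to 45.0% of the 6 resistant bars and at most 0.180% of the 6 parental bars.

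To see which members differed with cisplatin resistance, resistant cells were compared with parental cells, and resistant knockout cells with parental knockout cells. ALDH1A1, whose enzyme oxidises retinaldehyde and other aldehydes in the cytosol (ENSG00000165092, GRCh38 chromosome 9, 72900662 to 73080442, minus strand), had 4001, 2354 and 1561 reads in resistant knockout libraries 1, 2 and 3. It had 1027, 2929 and 1941 reads in the resistant libraries. Parental knockout libraries held 2, 0 and 4 reads and parental libraries 1, 0 and 1. In CPM this was 198, 130 and 96.4 in resistant knockout and 59.9, 178 and 102 in resistant libraries. Every parental library of either genotype was at or below 0.230 CPM. ALDH1A1 was thus near absent from all 6 parental libraries and at 59.9 CPM or more in all 6 resistant ones. The ratio of resistant to parental was 2898, with a 95% exact counting interval of 802 to 23933 (adjusted p = 1.78e-06 by edgeR's quasi-likelihood test). Among knockout libraries it was 1281 (588 to 3491, adjusted p = 3.19e-06). The intervals cover counting error only, and the fitted change moved by more than 1.5 times when parental knockout library 3, which held 4 of the 6 reads, was left out (log2 fold change 11.13, adjusted p = 1.46e-05).

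ALDH1A3, the retinaldehyde dehydrogenase of the eye and nasal region in mouse embryos (ENSG00000184254, chromosome 15, 100877714 to 100916626, plus strand), also rose. Its levels were 14.7, 11.6 and 13.5 CPM in resistant knockout and 9.75, 14.1 and 12.2 CPM in resistant libraries, with little spread. In parental knockout libraries it had 0.852, 0.516 and 1.61 CPM and in parental libraries 0.717, 0.833 and 0.518 CPM. The lowest resistant library was well above the highest parental one in both genotypes. Its log2 fold change was 4.12 ± 0.44 (SE, adjusted p = 4.1e-05) between resistant and parental cells and 3.72 ± 0.43 (adjusted p = 9.3e-05) among knockout libraries. Of the exon bases of ALDH1A3, 27.5% are shared with the antisense gene AC015712.2, which had 10 to 52 reads per library and averaged 1.60 CPM in resistant and 0.763 CPM in parental libraries. Whether the authors counted by strand is not given in the sources used here, so reads of the pair may not be told apart.

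ALDH1A2, the main retinaldehyde dehydrogenase of early mouse embryos (ENSG00000128918, chromosome 15, 57953424 to 58497866, minus strand), moved the opposite way at a low level. It had 0.544, 0.443 and 0.556 CPM in resistant knockout and 0.292, 0.0609 and 0.315 CPM in resistant libraries. The parental knockout group had 3.01, 4.32 and 0.804 CPM and the parental group 2.45, 2.69 and 1.60 CPM. All resistant libraries lay below all parental ones of the same genotype. The log2 fold change was -3.28 ± 0.69 (SE, adjusted p = 0.00407) between resistant and parental cells. Among knockout libraries it was -2.38 ± 0.63 (adjusted p = 0.0167), a call lost without resistant knockout library 1 (adjusted p = 0.0561) or 2 (0.0676), or without parental knockout library 2 (log2 fold change -1.88, adjusted p = 0.0673). The 3 genes of 1 enzymatic step thus split, ALDH1A1 and ALDH1A3 higher and ALDH1A2 lower in resistant cells.

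The promoters of the 3 retinaldehyde dehydrogenase genes are printed because these genes moved strongly and in both directions. The set of RefSeq promoters used here (GRCh38.p14) lists 7 of the 10 members, each window from 250 bases before to 50 bases after a start site. ALDH1L2, ALDH2 and ALDH3A1 had no entry in this set, so their promoters were not read. Capitals mark 2 motifs searched on both strands, CCAAT and the GC box GGGCGG, so a match on the minus strand reads as its reverse complement and overlapping matches run together. The windows are chr9:72953004-72953303 (minus strand) for ALDH1A1, chr15:100879581-100879880 (plus strand) for ALDH1A3 and chr15:58065662-58065961 (minus strand) for ALDH1A2.
ALDH1A1: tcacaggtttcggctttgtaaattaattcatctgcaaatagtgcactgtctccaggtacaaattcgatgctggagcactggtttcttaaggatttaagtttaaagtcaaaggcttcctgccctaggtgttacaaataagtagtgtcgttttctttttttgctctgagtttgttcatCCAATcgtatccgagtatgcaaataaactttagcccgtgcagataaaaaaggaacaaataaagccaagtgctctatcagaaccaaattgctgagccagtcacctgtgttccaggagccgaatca
ALDH1A3: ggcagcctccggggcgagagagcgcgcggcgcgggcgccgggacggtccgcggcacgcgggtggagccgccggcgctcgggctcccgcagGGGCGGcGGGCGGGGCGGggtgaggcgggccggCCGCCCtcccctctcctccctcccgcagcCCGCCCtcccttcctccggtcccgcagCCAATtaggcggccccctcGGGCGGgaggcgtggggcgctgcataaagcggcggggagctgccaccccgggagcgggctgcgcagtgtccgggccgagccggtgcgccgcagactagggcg
ALDH1A2: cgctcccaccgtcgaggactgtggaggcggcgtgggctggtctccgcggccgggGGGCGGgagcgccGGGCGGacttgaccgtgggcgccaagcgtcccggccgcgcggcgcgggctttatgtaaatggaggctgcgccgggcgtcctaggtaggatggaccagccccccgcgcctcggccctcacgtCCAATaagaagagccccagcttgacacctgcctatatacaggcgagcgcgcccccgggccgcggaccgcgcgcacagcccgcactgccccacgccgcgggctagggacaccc

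The ALDH1A1 window was AT-rich, with 40.3% G and C, below the lower quartile of 47% over all 35116 listed promoters. It held 7 CpG dinucleotides, and its ratio of observed to expected CpG, 0.574, was near the median of 0.579. The ALDH1A3 window had 81.7% G and C with 46 CpG, and the printed ALDH1A2 window 74% with 41 CpG, both above the upper quartile of 68%. Their CpG ratios, 0.923 and 0.998, were above the upper quartile of 0.856. A second listed ALDH1A2 start, with its window at chr15:58013974-58014273 (minus strand), went the other way, with 42.7% G and C, 1 CpG and neither motif. A CCAAT box stood at similar places in all 3, starting at position -74 from the start site in ALDH1A1, -71 in ALDH1A3 and -62 in ALDH1A2. The GC box matched 6 times in ALDH1A3 and 2 times in ALDH1A2, and was not in these letters of ALDH1A1. CCAAT occurred in 6 of the 7 members with a listed promoter, against 34.6% of all promoters, and the GC box in 6 of 7, against 45%. Some members have several listed starts, and each motif was in 6 of their 10 windows. TATAAA (11.5% of all promoters) and TGACNNNGC, a core of the antioxidant response element (13.3%), were in none of the members' windows. A match of letters is a description and not a bound site.

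Among the mitochondrial and lysine-pathway members, ALDH1B1 and ALDH7A1 rose in resistant cells and were well expressed in parental cells too. ALDH1B1, which oxidises acetaldehyde and other aldehydes in mitochondria (ENSG00000137124, chromosome 9, 38392664 to 38398661, plus strand), had 144, 125 and 204 CPM in resistant knockout and 171, 236 and 166 CPM in resistant libraries. Parental knockout libraries had 42.4, 76.2 and 67.3 CPM and parental libraries 39.4, 60.0 and 44.0 CPM. No resistant library came down to the level of a parental one. Its log2 fold change was 2.00 ± 0.31 (SE, adjusted p = 0.000566), and 1.35 ± 0.30 among knockout libraries (adjusted p = 0.00683).

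ALDH7A1, or antiquitin, which oxidises the semialdehyde of the lysine pathway (ENSG00000164904, chromosome 5, 126531200 to 126595418, minus strand), had 179, 146 and 160 CPM in resistant knockout and 198, 253 and 158 CPM in resistant libraries. In parental knockout libraries it had 46.8, 58.7 and 97.5 CPM and in parental libraries 58.9, 66.4 and 97.7 CPM. The groups did not overlap, and library 3 was the highest of both parental groups. The log2 fold change was 1.45 ± 0.32 (SE, adjusted p = 0.00526), and 1.26 ± 0.32 among knockout libraries (adjusted p = 0.0128). The call among knockouts was lost without parental knockout library 1 (1.03, adjusted p = 0.0509) or 2 (adjusted p = 0.0515).

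The ALDH1B1 and ALDH7A1 promoters are shown because both members were higher in resistant cells of either genotype, with the same 2 motifs in capitals. They lie at chr9:38392452-38392751 (plus strand) and chr5:126595170-126595469 (minus strand).
ALDH1B1: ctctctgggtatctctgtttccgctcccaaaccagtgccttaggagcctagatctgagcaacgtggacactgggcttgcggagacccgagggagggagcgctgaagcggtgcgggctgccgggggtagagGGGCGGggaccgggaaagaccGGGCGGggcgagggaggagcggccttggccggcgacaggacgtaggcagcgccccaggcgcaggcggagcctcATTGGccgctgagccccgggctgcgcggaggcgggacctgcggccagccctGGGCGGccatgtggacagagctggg
ALDH7A1: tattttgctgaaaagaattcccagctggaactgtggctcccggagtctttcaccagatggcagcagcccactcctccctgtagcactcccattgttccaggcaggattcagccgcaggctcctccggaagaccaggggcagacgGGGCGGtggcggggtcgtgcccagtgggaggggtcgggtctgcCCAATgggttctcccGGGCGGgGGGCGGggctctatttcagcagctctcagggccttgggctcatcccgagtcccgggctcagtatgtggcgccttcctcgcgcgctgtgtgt

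Each of these windows held 1 CCAAT box and 3 GC boxes. In ALDH1B1 the CCAAT box was on the minus strand at position -26, and in ALDH7A1 it was at -63, near its place in the ALDH1A windows.

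ALDH1L2, the mitochondrial 10-formyltetrahydrofolate dehydrogenase (ENSG00000136010, chromosome 12, 105019784 to 105084577, minus strand), rose at a low level. It had 5.89, 4.82 and 1.67 CPM in resistant knockout and 6.95, 2.99 and 1.89 CPM in resistant libraries. The parental knockout group had 0.601, 0.581 and 0.804 CPM and the parental group 0.597, 0.320 and 0.725 CPM. In both resistant groups library 1 was the highest and library 3 the lowest, and all were above the parental libraries. Its log2 fold change was 2.82 ± 0.63 (SE, adjusted p = 0.00559), or 2.13 without resistant library 1 (adjusted p = 0.0257). Among knockout libraries it was 2.63 ± 0.62 (adjusted p = 0.00871). ALDH1L2 shares 1.7% of its exon bases with C12orf45 on the other strand, which averaged 16.4, 10.7, 12.6 and 12.3 CPM in the resistant knockout, resistant, parental knockout and parental groups.

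ALDH2, the mitochondrial enzyme that clears acetaldehyde (ENSG00000111275, chromosome 12, 111766887 to 111817529, plus strand), overlapped in every comparison. It had 21.8, 13.6 and 7.29 CPM in resistant knockout and 12.2, 6.15 and 3.36 CPM in resistant libraries. Parental knockout libraries had 18.8, 12.7 and 19.3 CPM and parental libraries 10.2, 18.4 and 27.1 CPM. Library 1 was the highest in both resistant groups but the lowest in the parental group. The log2 fold change was -1.36 ± 0.52 (SE, adjusted p = 0.0659) between resistant and parental cells. It passed the threshold of 0.05 without resistant library 1 (-1.97, adjusted p = 0.0244), without parental library 1 (-1.67, adjusted p = 0.0422), with no filter on low counts (adjusted p = 0.00945) and with DESeq2 (adjusted p = 0.0359). Among knockout libraries it was -0.25 ± 0.50 (adjusted p = 0.754).

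The ALDH3 members did not move as a block. ALDH3A1, a major soluble protein of the cornea that oxidises aromatic and medium-chain aldehydes (ENSG00000108602, chromosome 17, 19737984 to 19748943, minus strand), had no read in any of the 6 resistant libraries. The parental knockout libraries had 8, 24 and 33 reads, or 0.401, 1.55 and 1.90 CPM. The parental libraries had 16, 126 and 93 reads, or 0.956, 8.07 and 4.81 CPM. It was thus present in all parental libraries, at a low level that varied widely within a group. Against a floor of 3 reads over a group's 3 libraries, ALDH3A1 was at least 79.7-fold lower in resistant than in parental cells (adjusted p = 0.00229). Among knockout libraries it was at least 22.3-fold lower (adjusted p = 0.00905). Without parental library 2, which held 126 of the 235 parental reads, the adjusted p was 0.0061.

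ALDH3A2, the fatty aldehyde dehydrogenase of the endoplasmic reticulum (ENSG00000072210, chromosome 17, 19648136 to 19677598, plus strand), had 58.6, 51.4 and 78.4 CPM in resistant knockout and 52.6, 75.9 and 75.8 CPM in resistant libraries. The parental knockout group had 23.2, 13.2 and 34.7 CPM and the parental group 26.2, 39.6 and 79.5 CPM. Parental library 3 alone lay above all resistant libraries, and the knockout groups did not overlap. Its log2 fold change was 0.49 ± 0.41 (SE, adjusted p = 0.399) between resistant and parental cells and 1.40 ± 0.42 (adjusted p = 0.0280) among knockout libraries. The call among knockouts was lost without resistant knockout library 1 (adjusted p = 0.0602) or 3 (0.0733), and without parental knockout library 1 (0.0737) or 2 (1.12, adjusted p = 0.0976).

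ALDH3B1, which acts on aldehydes from lipid peroxidation (ENSG00000006534, chromosome 11, 68008578 to 68029282, plus strand), changed little. It had 96.7, 81.2 and 70.3 CPM in resistant knockout and 80.1, 64.3 and 52.7 CPM in resistant libraries. Parental knockout libraries had 42.4, 54.5 and 64.6 CPM and parental libraries 62.3, 95.1 and 78.5 CPM. The groups without the knockout overlapped, and those with it did not. The log2 fold change was -0.26 ± 0.26 (SE, adjusted p = 0.487) between resistant and parental cells. Among knockout libraries it was 0.62 ± 0.26 (adjusted p = 0.100), and 0.80 when scaled by library size alone (adjusted p = 0.0284).

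**Figure D2:**
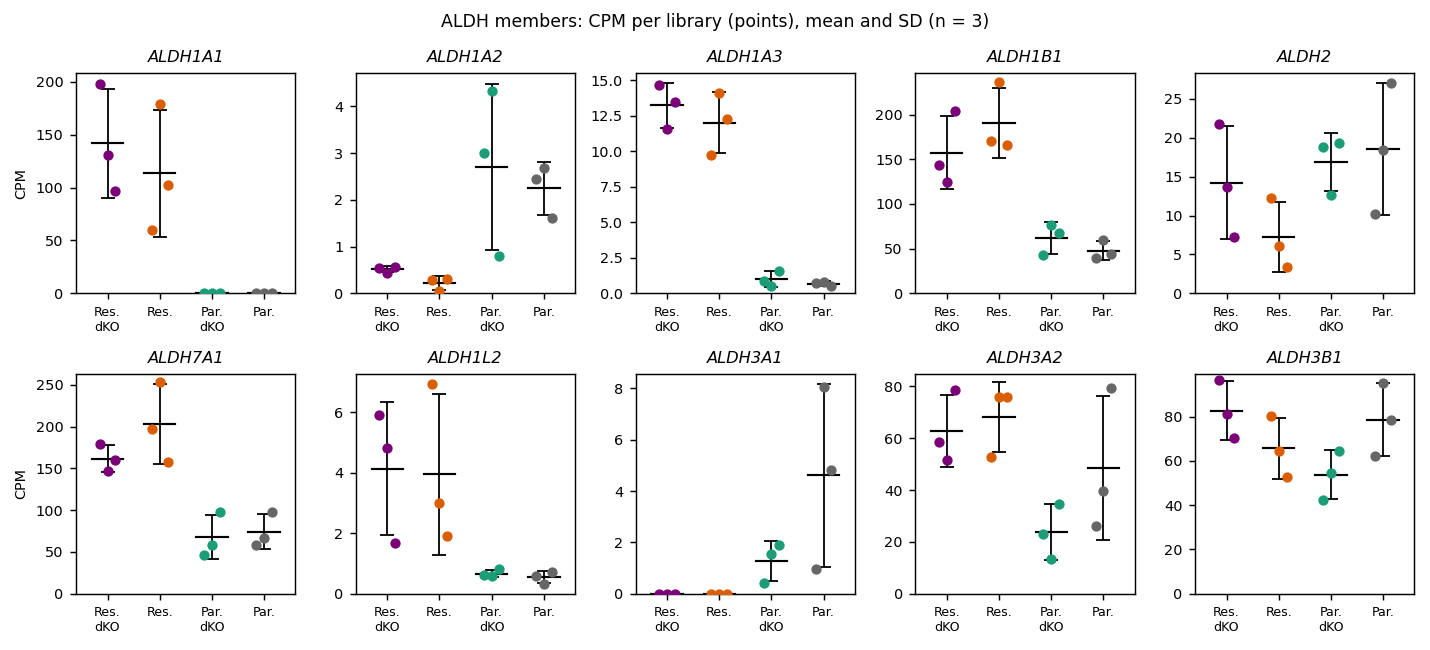
Level of each member in CPM (y axis, linear from 0) in the 3 libraries of the resistant knockout, resistant, parental knockout and parental groups (x axis), with points for libraries and bars for mean and SD. ALDH1A1, ALDH1A3, ALDH1B1, ALDH7A1 and ALDH1L2 are higher in both resistant groups than in both parental groups, and ALDH3A1 and ALDH1A2 are lower.

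Counted over the 10 members, 5 were higher in resistant than in parental cells (ALDH1A1, ALDH1A3, ALDH1B1, ALDH7A1 and ALDH1L2) and 2 were lower (ALDH1A2 and ALDH3A1). Of all 17947 genes tested, 28.0% passed in either direction, 15.2% higher and 12.8% lower. The median log2 fold change of the members was 0.97, against 0.02 over all genes tested. In the same 7 members the groups did not overlap, as in 45.5% of all genes. Among knockout libraries 6 members were higher, the same 5 and ALDH3A2, and ALDH1A2 and ALDH3A1 were again lower, against 23.9% of all genes in either direction, 13.6% higher and 10.2% lower. The members' median there was 1.30, and that of all genes 0.00. The groups did not overlap for 9 members, all but ALDH2, against 37.2% of all genes. With each library left out in turn, the count without the knockout was 7 to 8. Among knockouts it was 5 to 8, with 5 without parental knockout library 2. ALDH1A1, ALDH1A2 and ALDH3A1 passed the filter on low counts only through the groups where they were high. The 10 members were also chosen with earlier results of these data known. Their counts and medians thus describe these 10 genes, not the whole family, and support no more than each member's own test. Of 9 other aldehyde dehydrogenase genes, the 8 tested had a median log2 fold change of 0.09 without the knockout and 0.02 among knockouts.

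**Figure D3:**
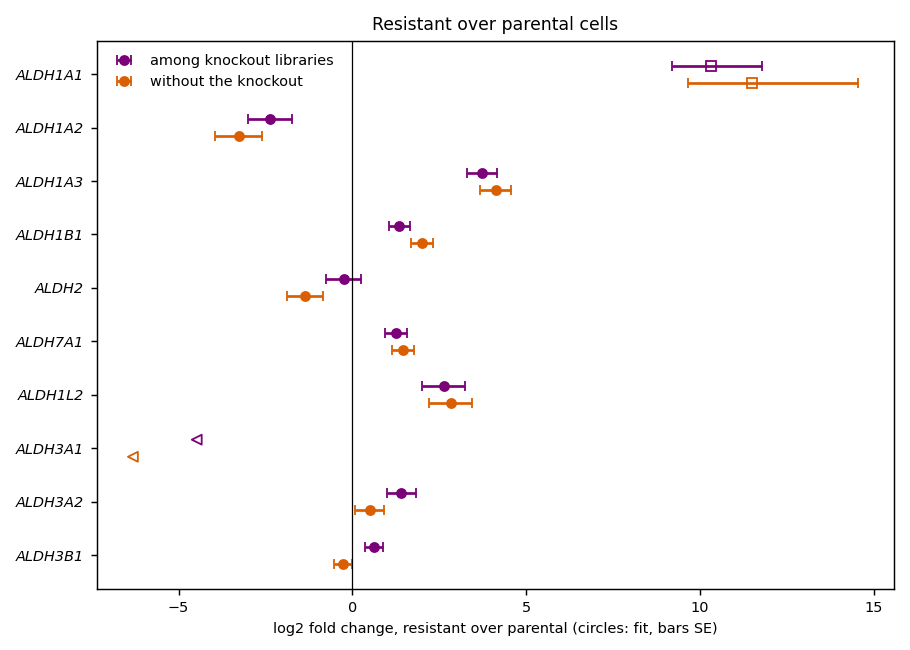
Log2 fold change of resistant over parental cells for each member (x axis), among knockout libraries (purple) and without the knockout (orange). Circles are fitted values with SE bars, squares the read ratio of ALDH1A1 with its 95% counting interval, and triangles the bound for ALDH3A1, whose fold is at least that large; both comparisons put ALDH1A1, ALDH1A3, ALDH1B1, ALDH7A1 and ALDH1L2 clear to the right of 0 and ALDH1A2 and ALDH3A1 clear to the left.

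The libraries labelled as knockout of both demethylases were compared with their controls within each background, to see whether the same genes changed. As given above, KDM5A transcripts were still present in them, and KDM5B transcripts overlapped those of the controls. In resistant cells 0 of 10 members passed, with edgeR and with DESeq2, 0 had an unadjusted p under 0.05, and 0.212% of all genes passed. The log2 fold changes of knockout over control ran from -0.33 to 1.17 over the 9 members with reads. The largest were those of ALDH1A2 (1.17 ± 0.70 SE, adjusted p = 0.751) and ALDH2 (0.98 ± 0.51, adjusted p = 0.679). ALDH2 passed only with the replicate block within each background (1.02, adjusted p = 0.0418 by edgeR), whose numbers do not pair all resistant libraries. ALDH1A2, at 0.443 to 0.556 CPM in resistant knockout against 0.0609 to 0.315 CPM in resistant libraries, was the only member whose groups did not overlap, against 15.2% of all genes. ALDH1A1 differed by 0.32 ± 0.44, ALDH1A3 by 0.14 ± 0.37, ALDH1B1 by -0.28 ± 0.30 and ALDH7A1 by -0.33 ± 0.31 (SE), and none of these passed the test. ALDH1L2 differed by 0.07 ± 0.56, ALDH3A2 by -0.12 ± 0.41 and ALDH3B1 by 0.33 ± 0.26. ALDH3A1 had no reads in either group and gives no fold.

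In parental cells 0 of 10 members passed with edgeR and with DESeq2, 1 had an unadjusted p under 0.05, and 0.00% of all genes passed. All 10 members overlapped between knockout and control, against 6.59% of all genes that did not. The ALDH3 members had the most negative values, -1.85 ± 0.82 for ALDH3A1, -1.03 ± 0.42 for ALDH3A2 and -0.55 ± 0.26 for ALDH3B1 (SE, adjusted p = 1 for each by edgeR, unadjusted p = 0.0518, 0.0278 and 0.0554). Without parental library 2 the value of ALDH3A1 was -1.18. The 3 genes and ALDH7A1 were each lower in the knockout library in 3 of 3 same-numbered pairs, while ALDH1B1 and ALDH1L2 were higher in 3 of 3. With a block for replicate number within each background, whose numbers pair the parental libraries, the adjusted p was 0.0793 for ALDH3A1, 0.0882 for ALDH3A2 and 0.197 for ALDH3B1. The other members differed by between -0.14 for ALDH7A1 and 0.53 for ALDH1A3, and ALDH1A1 had 6 reads in parental knockout and 2 in parental libraries, a ratio of 2.93 (95% counting interval 0.524 to 29.7). A threshold missed in 3 against 3 libraries does not show that knockout and control were alike.

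The difference of the knockout effects, resistant minus parental, passed for 0 of 10 members with edgeR and with DESeq2, against 0.0279% of all genes with edgeR, and 1 had an unadjusted p under 0.05. That member was ALDH3B1, with a difference of 0.88 ± 0.37 (SE, unadjusted p = 0.0323, adjusted p = 1.00). For ALDH3B1 the replicate block within each background gave 0.89 (adjusted p = 0.1075 by edgeR), though its numbers do not pair all resistant libraries. Its knockout and control libraries overlapped in both backgrounds. ALDH2 (1.11 ± 0.72), ALDH3A2 (0.91 ± 0.58) and ALDH1A2 (0.90 ± 0.90) had differences of similar size and larger error. No effect of the knockout on a member was thus shown to depend on the background.

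**Figure D4:**
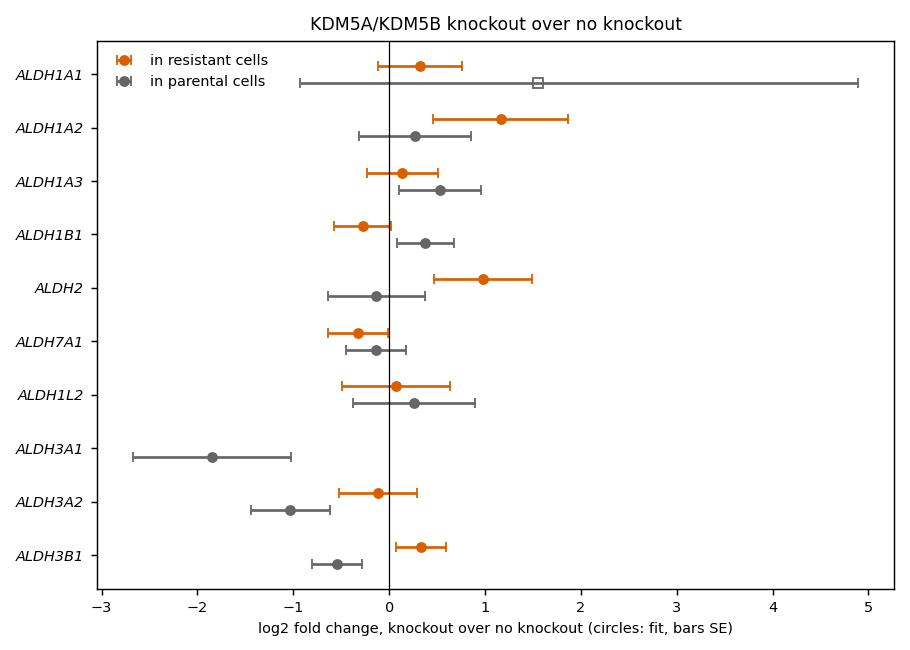
Log2 fold change of knockout over control for each member (x axis) in resistant cells (orange) and in parental cells (grey), with circles for fitted values and bars for SE. The square is the ALDH1A1 read ratio in parental cells with its 95% counting interval, ALDH3A1 has no value in resistant cells, and the 9 resistant values lie between -0.33 and 1.17.

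Of 9 aldehyde dehydrogenase genes outside the 10, 8 were tested, and 3 were higher and 1 lower in resistant than in parental cells (median log2 fold change 0.09), where 28.0% of all genes passed in either direction. ALDH4A1, which acts in mitochondrial proline breakdown, had 48.3, 54.9 and 51.8 CPM in resistant and 2.75, 4.93 and 5.85 CPM in parental libraries (3.51 ± 0.31 SE, adjusted p = 9.76e-06). ALDH1L1, the cytosolic counterpart of ALDH1L2, had 98 reads in resistant and 1 in parental libraries (ratio 96.3, 95% counting interval 16.9 to 3842, adjusted p = 0.000552). Without parental library 1, which held that read, its adjusted p was 0.0021. ALDH5A1, which clears succinic semialdehyde, averaged 43.5 CPM in resistant and 20.8 CPM in parental libraries (1.06 ± 0.25, adjusted p = 0.00792). ALDH16A1 averaged 32.1 CPM in resistant and 53.4 CPM in parental libraries (-0.74 ± 0.25, adjusted p = 0.0465), a call lost in 12 of the 18 alternatives. Among knockout libraries ALDH1L1, ALDH4A1 and ALDH5A1 were again higher and none was lower, where 23.9% of all genes passed.

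Because 3 members make retinoic acid, 30 further genes of retinoid uptake, storage, oxidation and response were read alongside, of which 23 were tested. Of these 4 were higher and 4 lower in resistant than in parental cells, a share near the 28.0% of all genes. Among knockout libraries 5 were higher and 3 lower, where 23.9% of all genes passed. The median log2 fold change was 0.62 without the knockout and 0.50 among knockouts. RARB, a retinoic acid receptor gene that is itself a known target of retinoic acid, had 8.12, 3.88 and 4.63 CPM in resistant knockout and 10.7, 5.30 and 4.73 CPM in resistant libraries. It was at or below 0.239 CPM in every parental library, a resistant to parental ratio of 50.7 (24.3 to 127, adjusted p = 6.76e-05). CYP26A1, which encodes a retinoic acid hydroxylase, had 3.66, 3.99 and 0.988 CPM in resistant knockout and 3.50, 1.52 and 0.788 CPM in resistant libraries. It was at most 0.345 CPM in parental libraries, a ratio of 24.6 (9.30 to 91.9, adjusted p = 0.00434). Both genes were thus near absent in parental cells and present at a low level in all resistant libraries. Both calls held with any library left out, while the fitted log2 fold change of CYP26A1, 4.55, was 3.81 without resistant library 1 and 5.65 without parental library 3. That of RARB, 5.59, was 6.19 without parental library 1.

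RBP4, the retinol carrier of plasma, had no read in resistant libraries and 1.43, 0.576 and 3.31 CPM in parental ones, at least 32.9-fold lower (adjusted p = 0.0149, and 0.0320 without parental library 3). LRAT, which esterifies retinol for storage, averaged 0.0970 CPM in resistant and 1.49 CPM in parental libraries (-3.86 ± 0.69 SE, adjusted p = 0.00158). CYP26B1, a second retinoic acid hydroxylase, averaged 41.1 CPM in resistant knockout and 13.8 CPM in parental knockout libraries (1.57 ± 0.41, adjusted p = 0.0160). LRAT and CYP26B1 were chosen after their values were seen. RARB, CYP26A1, RBP4, LRAT and ALDH1L1 passed the filter on low counts only through the groups where they were high. The counts given for the lists thus describe them and support no more than each gene's own test. Other calls without the knockout included RDH11, higher, and RDH13 and RXRA, lower. For the knockout edgeR called 0 of the 23 in either background, with 2 at an unadjusted p under 0.05 in resistant and 1 in parental cells. DESeq2 called 1 in resistant and 0 in parental cells.

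**Figure D5:**
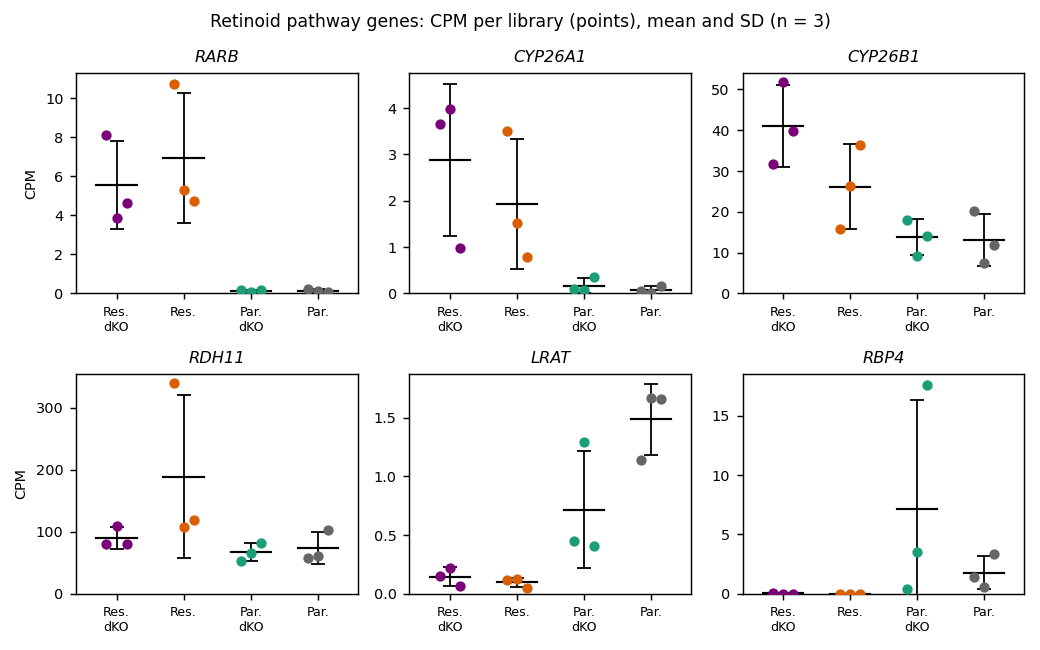
Levels of 6 retinoid pathway genes in CPM (y axis, linear from 0) in the 3 libraries of each group (x axis), with points for libraries and bars for mean and SD. RARB and CYP26A1 are near 0 in both parental groups and above it in both resistant groups, while LRAT and RBP4 are lower in both resistant groups.

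Of 21 genes of folate-dependent one-carbon metabolism, the pathway of ALDH1L2, all were tested, and 2 were higher and 1 lower in resistant than in parental cells, a smaller share than the 28.0% of all genes. MTHFD2L, a mitochondrial methylenetetrahydrofolate dehydrogenase, averaged 5.53 CPM in resistant and 23.4 CPM in parental libraries (-2.08 ± 0.31 SE, adjusted p = 0.000401). SLC19A1, the reduced folate carrier, averaged 71.5 CPM in resistant and 28.9 CPM in parental libraries (1.30 ± 0.27, adjusted p = 0.00352). DHFR2, a mitochondrial dihydrofolate reductase, averaged 22.3 CPM in resistant and 9.26 CPM in parental libraries (1.27 ± 0.34, adjusted p = 0.0140), a call lost without resistant library 1 (0.90, adjusted p = 0.0705) or parental library 2 (adjusted p = 0.0591). Among knockout libraries SLC19A1 was higher and MTHFD2L lower, where 23.9% of all genes passed.

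Of 20 genes of alcohol and aldehyde reduction, which turns carbonyl compounds into alcohols, 13 were tested, and 2 were higher and 7 lower in resistant than in parental cells (median log2 fold change -0.75). Of all genes tested 15.2% were higher and 12.8% lower. The aldo-keto reductase genes led. AKR1C1 had 0.350, 0.366 and 0.0526 CPM in resistant and 11.6, 15.9 and 55.4 CPM in parental libraries (-6.74 ± 0.92 SE, adjusted p = 0.000252, and -5.76 without parental library 3). AKR1C2 had no read in resistant libraries and was at least 30.9-fold lower (adjusted p = 0.00233, and 0.0046 without parental library 3). AKR1C3 averaged 5.80 CPM in resistant and 42.7 CPM in parental libraries (-2.88 ± 0.83, adjusted p = 0.0217), a call lost without resistant library 2 (adjusted p = 0.0651) or 3 (0.0707) or parental library 3 (-1.92, adjusted p = 0.0810). These 3 genes are similar in sequence, so some of their reads may be split between them. ADHFE1, a mitochondrial hydroxyacid transhydrogenase, was higher, with 24.4, 15.7 and 7.62 CPM in resistant and 1.31, 1.02 and 2.23 CPM in parental libraries (3.37 ± 0.77, adjusted p = 0.00659). Among knockout libraries 2 were higher and 2 lower, where 13.6% of all genes were higher and 10.2% lower. The largest change was that of AKR1C1, with 3.27 to 5.05 CPM in resistant knockout and 11.2 to 58.7 CPM in parental knockout libraries (-2.70 ± 0.71, adjusted p = 0.0162). That call was lost without resistant knockout library 2 (adjusted p = 0.0667) or parental knockout library 3 (-1.66, adjusted p = 0.0661), and those of ADHFE1 and DCXR, which were higher, were each lost in 4 of 18 alternatives. AKR1B1, the remaining one, was lower (-2.12 ± 0.44, adjusted p = 0.0043). For the knockout edgeR called 0 of the 13 in either background, and DESeq2 2 in resistant and 0 in parental cells, with 3 and 0 at an unadjusted p under 0.05 with edgeR.

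For ALDH1A1, ALDH1A3 and ALDH3A1 the protein-coding genes with the most similar profile were found among 13380. Likeness was the root mean square difference of log2 CPM centred on each gene's mean over the 12 libraries. A prior count of 2 was added before the log, which shrinks differences where reads are few. Genes near in profile may thus differ in fold. CYB5A (0.60), LDOC1 (0.66) and EPB41L3 (0.75) were nearest to ALDH1A1. CYB5A had 56.9 to 63.8 CPM in resistant knockout and 30.1 to 52.8 CPM in resistant libraries and no read in a parental one. STXBP6 (0.25), AIF1L (0.33) and LRRC75B (0.38) were nearest to ALDH1A3. C6orf223 (0.64), ITGB4 (0.64) and DOK7 (0.66) were nearest to ALDH3A1, and ITGB4 had 16.9 to 24.0 CPM in resistant knockout and 14.0 to 48.4 CPM in resistant libraries, against 42.8 to 447 CPM in parental knockout and 183 to 897 CPM in parental libraries. No other member came as close, the nearest being ALDH1A3 to ALDH1A1 (2.83), ALDH1L2 to ALDH1A3 (1.02) and ALDH1A2 to ALDH3A1 (1.53).

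Genes beside ALDH1A1 and the ALDH3A pair, chosen after values were seen, did not all share the members' direction. ANXA1, 71315 bases from ALDH1A1, averaged 531 CPM in resistant and 498 CPM in parental libraries (0.09 ± 0.30 SE, adjusted p = 0.848 by edgeR), and TMC1 on the other side was under the filter on low counts. On chromosome 17, SLC47A2 lies between ALDH3A2 and ALDH3A1 and averaged 0.688 CPM in resistant and 1.87 CPM in parental libraries (-1.44 ± 0.67, adjusted p = 0.124), a difference of -0.25 without parental library 3 (adjusted p = 0.785). SLC47A1, a cation exporter gene on the far side of ALDH3A2, averaged 21.6 CPM in resistant and 0.805 CPM in parental libraries (4.73 ± 0.68, adjusted p = 0.000339), and ULK2, beyond ALDH3A1, averaged 53.5 CPM in resistant and 40.0 CPM in parental libraries (0.42 ± 0.30, adjusted p = 0.313). The ALDH3A1 loss and the SLC47A1 rise were thus found within 1 short stretch of the chromosome.

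Some markers of other cell types moved with the members between backgrounds. The summed level of 7 fibroblast markers was 2515 to 4429 CPM in resistant knockout, 349 to 954 CPM in resistant, 2.56 to 28.4 CPM in parental knockout and 1.91 to 8.70 CPM in parental libraries. COL1A1 made up nearly all of it in both resistant groups, while DCN had the highest mean of the 7 in parental knockout (5.77 CPM) and in parental libraries (2.46 CPM). Of the 7, 4 to 5 reached 1 CPM in resistant knockout, 2 to 4 in resistant, 0 to 3 in parental knockout and 1 to 3 in parental libraries. THY1, a defining fibroblast surface marker, was at or below 0.099 CPM in every resistant library. Between resistant and parental cells 15.2% of all genes tested were higher and 12.8% lower. Of the 6 fibroblast markers tested, 3 were higher in resistant than in parental cells, COL1A1 (mean 671 against 0.927 CPM), COL1A2 (2.97 against 0.211 CPM) and PDGFRA (3.90 against 0.609 CPM). DCN was lower (0.0748 against 2.46 CPM), and LUM, at 1.53 against 0.307 CPM, did not pass (adjusted p = 0.173 by edgeR). The 5 hepatocyte markers summed to 120 to 373 CPM in resistant knockout, 72.2 to 468 CPM in resistant, 4.94 to 27.5 CPM in parental knockout and 5.59 to 41.8 CPM in parental libraries. SERPINA1 made up nearly all of that sum, and ALB was at or below 0.277 CPM in every resistant library. The 5 leukocyte markers summed to between 11.0 and 95.4 CPM over all libraries, nearly all from CD68, and PTPRC, the pan-leukocyte marker, was at most 0.301 CPM. The 5 endothelial markers summed to at most 3.00 CPM. The 5 mesothelial markers summed to 73.4 to 85.0 CPM in resistant knockout and 41.9 to 90.2 CPM in resistant libraries, against 14.7 to 97.2 CPM in parental knockout and 36.1 to 76.9 CPM in parental libraries. These overlapping sums held markers that differed both ways. CALB2 (mean 9.36 CPM in resistant and 0.138 CPM in parental libraries) and BNC1 (13.0 and 0.281 CPM) were higher in resistant cells, and MSLN (0.634 and 37.1 CPM) was lower. The part of the fibroblast, hepatocyte and mesothelial markers in the members' differences was not tested. In such bulk libraries fewer cells with a transcript and less of it per cell cannot be told apart.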

How the data were processed

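The deposited file holds the authors' raw counts of reads for each gene. The submitters' processing notes name Trim Galore 0.6.10, then STAR 2.7.10a, then featureCounts 2.0.1, with build GRCh38; which annotation and strand setting were used, and how multiply mapped reads were handled, is not given in the sources used here. Per the labels' protocols, libraries came from poly(A) RNA with a directional kit. In 2 column names the resistant line is misspelled by 1 letter; they were matched to resistant libraries 2 and 3.

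The 59542 rows were summed by gene identifier to 59498 genes. The filter filterByExpr kept 17947 of these, and TMM scaling was used, in edgeR 4.0.16 (limma 3.58.1, R 4.3.3). The 12 libraries were fitted together by group. The robust quasi-likelihood test was applied to 5 contrasts, adjusted by Benjamini-Hochberg over all genes at 0.05. The SE is the log2 fold change over the square root of F. CPM use effective library sizes. With no reads in a group a fold is a bound against 3 counts, and with 1 to 10 counts a ratio with a 95% exact interval; reads carry no molecular identifiers. The script was tested on simulated counts. Exon lengths, overlaps and coordinates came from GENCODE 29 and promoters from RefSeq.

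Members and lists were chosen with earlier results of these data known. All 10 members are named in each comparison. In each list up to 4 called genes with at least 1 CPM in the higher group are named by size of change, and for 3 members the 3 genes nearest in profile. A gene that the rule names is not reported here. The alternatives scaled by median of ratios or by library size alone, kept all genes with 1 count, used DESeq2 1.42.0, fitted only the libraries compared, added a replicate block over all libraries or within each background, and left out each library. Deviations from group means of same-numbered libraries correlated at 0.66, 0.77 and 0.78 between parental knockout and parental, so those numbers pair the libraries. Between resistant knockout and resistant libraries they correlated at 0.57, -0.19 and 0.64, so number 2 does not pair those.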

Additional observations from a re-analysis of the deposited data

How the results depend on the processing

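The 5 members called higher and 2 called lower between resistant and parental cells without the knockout kept direction and call under every alternative run, and ALDH2 joined them under 4. The number of members called ranged from 7 to 8 over the leave-outs there and from 5 to 8 among knockouts, and was 0 to 0 in both knockout comparisons and their difference. With the replicate block within each background, 1 member was called for the knockout in resistant cells, ALDH2 (log2 fold change 1.02, adjusted p = 0.0418 by edgeR). The numbers do not pair all of those libraries. The block changed no other member's call. Of 880 alternative values of the members, 846 kept both direction and call. Those that changed sign did so only when a library was left out, none of them past the threshold. Knockout in resistant cells ranged from -0.013 to 0.80 for ALDH1A1, -0.29 to 0.76 for ALDH1L2 and -0.31 to 0.0055 for ALDH3A2. Knockout in parental cells ranged from -0.24 to 0.70 for ALDH1A2, -0.0015 to 0.51 for ALDH1L2, -0.40 to 0.25 for ALDH2 and -0.50 to 0.10 for ALDH7A1. Their difference ranged from -0.69 to 0.13 for ALDH1A3, -0.56 to 0.50 for ALDH1L2 and -0.44 to 0.17 for ALDH7A1. ALDH2 ranged from -0.73 to 0.064 among knockouts, and ANXA1 from -0.16 to 0.29 between resistant and parental cells. For the lists, counts that moved by over 1.5 times between resistant and parental cells were folate genes, 3 against 8 with no filter and 5 with DESeq2, with the libraries compared alone and with the block over all libraries, and retinoid genes, 8 against 5 with the libraries compared alone. For the knockout in resistant cells, where none was called, no filter gave 3 retinoid and 3 reduction genes, and the block within each background gave 1 retinoid, 1 folate and 3 reduction genes. It gave 3 reduction genes for the difference of the knockout effects, as did no filter, and DESeq2 gave 1; no filter gave 1 retinoid gene for the knockout in parental cells. Among knockouts folate genes were 2 against 4 with no filter and with the block over all libraries, and retinoid genes 8 against 4 with the libraries compared alone. Over the leave-outs, retinoid genes called ranged from 5 to 9, folate genes from 2 to 5 and reduction genes from 4 to 9 without the knockout, and from 4 to 8, 2 to 6 and 2 to 6 among knockouts. KDM5A passed in 5 of 19 alternatives in resistant cells and in 1 in parental cells. Low counts limit ALDH1A1 in parental cells, ALDH3A1 and ALDH1A2; the causes of these changes were not tested.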
